A study of Drosophila melanogaster with 2 samples.

Results

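The Dpr and DIP genes code for neuronal cell adhesion proteins of the immunoglobulin superfamily in Drosophila melanogaster. They were taken by symbol as all protein-coding genes of the Ensembl annotation named dpr with a number or beginning with DIP and a hyphen. This gave 32 genes of 13968 on the 7 chromosome arms, 21 of them Dpr and 11 of them DIP genes. Genome binding of Gsc, the fly Goosecoid homeodomain protein, was measured by chromatin immunoprecipitation and sequencing (ChIP-seq) with an antibody to GFP, in embryos of a transgenic strain that carries a Gsc-eGFP fusion. The labels give 1 group, whole embryos aged 0 to 24 h, in 2 biological replicates, with chromatin sonicated to 200 to 800 bp. There is no other genotype, stage or treatment, and no control library was analysed here. Whole embryos mix all cell types and all stages of this period, so strong binding in few cells and weak binding in many cannot be told apart.

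Dpr stands for defective proboscis extension response, the behaviour through which dpr1 was found, and DIP for Dpr-interacting protein. Both families are cell surface proteins with immunoglobulin domains, and proteins of one family bind selected partners in the other, which forms a network of pairs. Known pairs are DIP-alpha with dpr6 and dpr10, DIP-gamma with dpr11, and DIP-delta with dpr12. Different neurons carry different members, and the pairs are known for their part in the choice of synaptic partners, in neuronal survival in the visual system and in the wiring of neuromuscular junctions. Gsc belongs to the homeodomain class whose proteins, like Bicoid, bind the word TAATCC.

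The authors' thresholded list of both replicates (the main list) was used for bound regions. The longer list from which it was taken, ranked by the irreproducible discovery rate (IDR), was used for regions that missed the threshold. A ranked region below the threshold is called a candidate and need not be a bound site. The sequences are shown for the bound regions of dpr3 and dpr9, and for the strongest candidates of dpr20, DIP-zeta and DIP-eta, 3 of the 4 highest among the genes with no region in the main list. Each runs from 100 bp before to 100 bp after the summit on the plus strand of the Release 6 reference genome (dm6), and capitals mark any of 8 searched words on either strand.
dpr3, chr2L:2084498-2084698: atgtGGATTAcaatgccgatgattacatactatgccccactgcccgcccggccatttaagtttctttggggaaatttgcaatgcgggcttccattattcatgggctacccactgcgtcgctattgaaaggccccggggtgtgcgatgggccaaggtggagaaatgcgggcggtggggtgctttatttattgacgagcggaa
dpr9, chr3R:15057287-15057487: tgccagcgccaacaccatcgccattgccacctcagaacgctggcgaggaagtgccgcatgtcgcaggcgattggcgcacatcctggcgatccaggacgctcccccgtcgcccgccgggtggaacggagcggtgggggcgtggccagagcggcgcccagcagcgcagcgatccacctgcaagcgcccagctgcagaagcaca
dpr20, chr3L:857728-857928: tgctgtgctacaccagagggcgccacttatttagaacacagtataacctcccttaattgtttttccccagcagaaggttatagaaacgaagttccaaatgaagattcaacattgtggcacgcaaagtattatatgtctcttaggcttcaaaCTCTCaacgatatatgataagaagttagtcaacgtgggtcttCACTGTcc
DIP-zeta, chr2L:9066258-9066458: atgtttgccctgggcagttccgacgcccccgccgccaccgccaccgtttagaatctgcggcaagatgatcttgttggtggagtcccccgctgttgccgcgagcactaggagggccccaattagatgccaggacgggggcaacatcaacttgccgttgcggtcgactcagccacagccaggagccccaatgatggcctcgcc
DIP-eta, chr2L:5605233-5605433: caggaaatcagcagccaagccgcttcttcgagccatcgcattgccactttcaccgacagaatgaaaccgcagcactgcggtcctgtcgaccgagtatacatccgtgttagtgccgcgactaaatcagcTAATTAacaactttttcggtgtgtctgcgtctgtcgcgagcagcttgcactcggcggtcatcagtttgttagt
In the dpr3 sequence the capitals are TAATCC read on the minus strand, 96 bp before the summit. In dpr20 they are GAGAG, 51 bp after the summit, and ACAGTG, 93 bp after it, both on the minus strand. DIP-eta holds TAATTA, the word of many other homeodomains, 28 bp after the summit. The dpr9 and DIP-zeta sequences hold none of the 8 words, and their GC content over the printed length was 69.7% and 63.2%.

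Regions of the main list were given to a gene when the summit lay nearest to one of its transcription start sites (TSS) or inside its body. Under this rule 5 of the 32 genes, 15.6%, had at least 1 region, against 9.22% of all protein-coding genes and 31.6% of those with a body of at least 20 kb. They were DIP-lambda with 10 regions, dpr12 with 3, and dpr21, dpr3 and dpr9 with 1 each, 16 regions of the 1470 on the arms. The 4 Dpr genes and the 1 DIP gene were all long, from 22.3 to 379 kb, and 18 of the 32 members reached 20 kb. Of these 18 long members 27.8% had a region, a share near the background of long genes. By arm, regions were found at 1 of 9 members on 2L, 3 of 5 on 2R and 1 of 8 on 3R, and at none of 4 on 3L, 1 on 4 and 5 on X. Of all protein-coding genes 9.63% had one on 2L, 8.98% on 2R, 8.48% on 3R, 9.13% on 3L and 10.6% on X, and 0 of 80 on 4. On arm 2R lay 14 of the 16 regions, 10 of them those of DIP-lambda, and 280 of the 1470 of the main list. Regions and genes of 1 genome are not replicates, so these counts are given with no test.

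The share of bound genes rose with gene length in the whole annotation, and the members followed the same order. Below 5 kb, 5.99% of all genes had a region and 0 of 4 members did. From 5 to 20 kb the shares were 13.7% and 0 of 10. From 20 to 50 kb they were 24.5% of all genes and 11.1% of members, dpr9 alone of 9. At 50 kb and over they were 47.6% of all genes and 44.4% of members, that is 4 of 9. In every length class the members' share lay below that of all genes, with 4 to 10 members in a class.

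**Figure D1:**
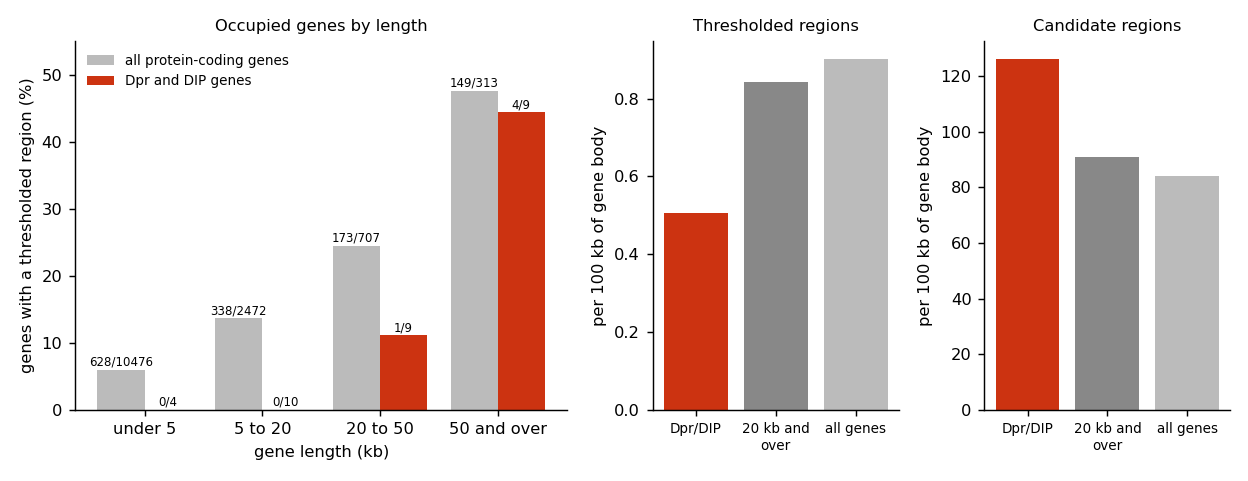
Left, share of genes with at least 1 region of the main list by gene length in kb, for all protein-coding genes (grey) and for Dpr and DIP genes (red), with counts above the bars. Right, main-list regions and candidates per 100 kb of gene body, where the members had 0.506 main-list regions against 0.902 in all genes, and 126 candidates against 84.0. Stretches without any ranked region are counted in these lengths.

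Counted over whole bodies, the joined member bodies held fewer bound regions and more candidates per length than other gene bodies. Over the joined bodies of the 32 genes, 1579 kb, lay 8 regions of the main list, or 0.506 per 100 kb. The density was 0.674 in Dpr bodies and 0.290 in DIP bodies, against 0.843 in protein-coding genes of at least 20 kb and 0.902 in all. Candidates went the other way, with 1994 in member bodies, or 126 per 100 kb, against 90.8 in long genes and 84.0 in all. Single members differed: over whole bodies, 26 of the 32 had more candidates per length than all genes together. The other 6 had fewer, DIP-lambda with 8.20 per 10 kb, dpr14 with 6.55 and 4 members with 0. The value for all genes includes stretches without any ranked region as length, so the count of 26 was not made against a like length. With 8 main-list regions in all, their densities rest on small counts. Stretches of over 10 kb without any ranked region, described below, hold no candidate but count as length here. Outside them lay 1434 of 1579 kb of member bodies, 36035 of 51841 kb of long genes and 58154 of 90981 kb of all. Members thus had the larger part outside, and the candidate densities above were not corrected for this. All candidates lay outside the stretches, 1994 for members, 47090 for long genes and 76419 for all genes. Set against the lengths outside, these counts stood closer together per length than the densities above. The higher candidate density over whole bodies is thus not read as a trait of the members.

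DIP-lambda, the longest member, codes for a DIP receptor and starts 326768 bp from the centromeric end of 2R (plus strand, 326768 to 705848). Of its 10 regions, 8 lay outside the gene, from 179452 to 292843 bp upstream, and were given to it only because its TSS was the nearest of a protein-coding gene. The strongest was the farthest one (2R, 33757 to 34092), where the main list gave a signal of 105, with 41.9 in replicate 1 and 56.2 in replicate 2 (49.0 ± 10.1, SD, n = 2). Signal values are the authors' own, on a scale not given in the sources used here, and each replicate's value comes from its own list, so a ratio between replicates also holds any difference in scale. This was the only 1 of the 16 regions above the median signal of the main list, 97.4.

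The next upstream regions of DIP-lambda were 2 that overlap. That at 36720 to 37055 had a signal of 66.5, with 29.8 in replicate 1 and 46.4 in replicate 2. That at 36919 to 37254 had 11.3, with 2.07 in replicate 2, and in replicate 1 both took their value from the same region. Further along, the region at 147148 to 147483 had 86.6, with 34.2 and 56.9 in replicates 1 and 2 (45.6 ± 16.1, SD, n = 2). It is the only region of the 16 with TATCGATA, the word of the factor DREF, within 50 bp of the summit. The other 4 upstream regions had signals from 61.0 to 63.9, between 71803 and 144003. Replicate 2 was the higher in 6 of the 8 upstream regions.

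Inside DIP-lambda lay 2 regions, both in long introns. The first (399242 to 399577) was in intron 2 of 11, an intron of 83719 bp, 72642 bp downstream of the TSS, with a signal of 81.9. It had 46.3 in replicate 1 and 29.8 in replicate 2 (38.0 ± 11.7, SD, n = 2), the opposite order to most upstream regions. The other (618212 to 618547) was in intron 9, 62882 bp long and 291612 bp from the TSS, with a signal of 76.7. It had 49.5 in replicate 2 and no ranked region in replicate 1. The nearest TSS there was that of CG46302, 236434 bp away. Across all protein-coding genes 1 gene had more regions than DIP-lambda under this rule, the myosin gene Myo81F with 16.

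Most of the upstream regions of DIP-lambda lay in repeated sequence. In 5 of these 8 regions, at least 50% of the 31-base words of the region occurred more than once in the genome, up to 90.5%, and in the other 3 the share was 5.56%, 16.0% and 35.9%. None of the other 8 regions reached 50%, and of the main list 57 of 1470 regions did, 3.88%. No region of a member lay over an annotated transposable element. Reads from repeated sequence can map to several places, and how they were handled is not given in the sources used here. What part this had in the signal was not tested. Without DIP-lambda there remained 4 genes and 6 regions, with a median signal of 68.2 against 66.6 for all 16.

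**Figure D2:**
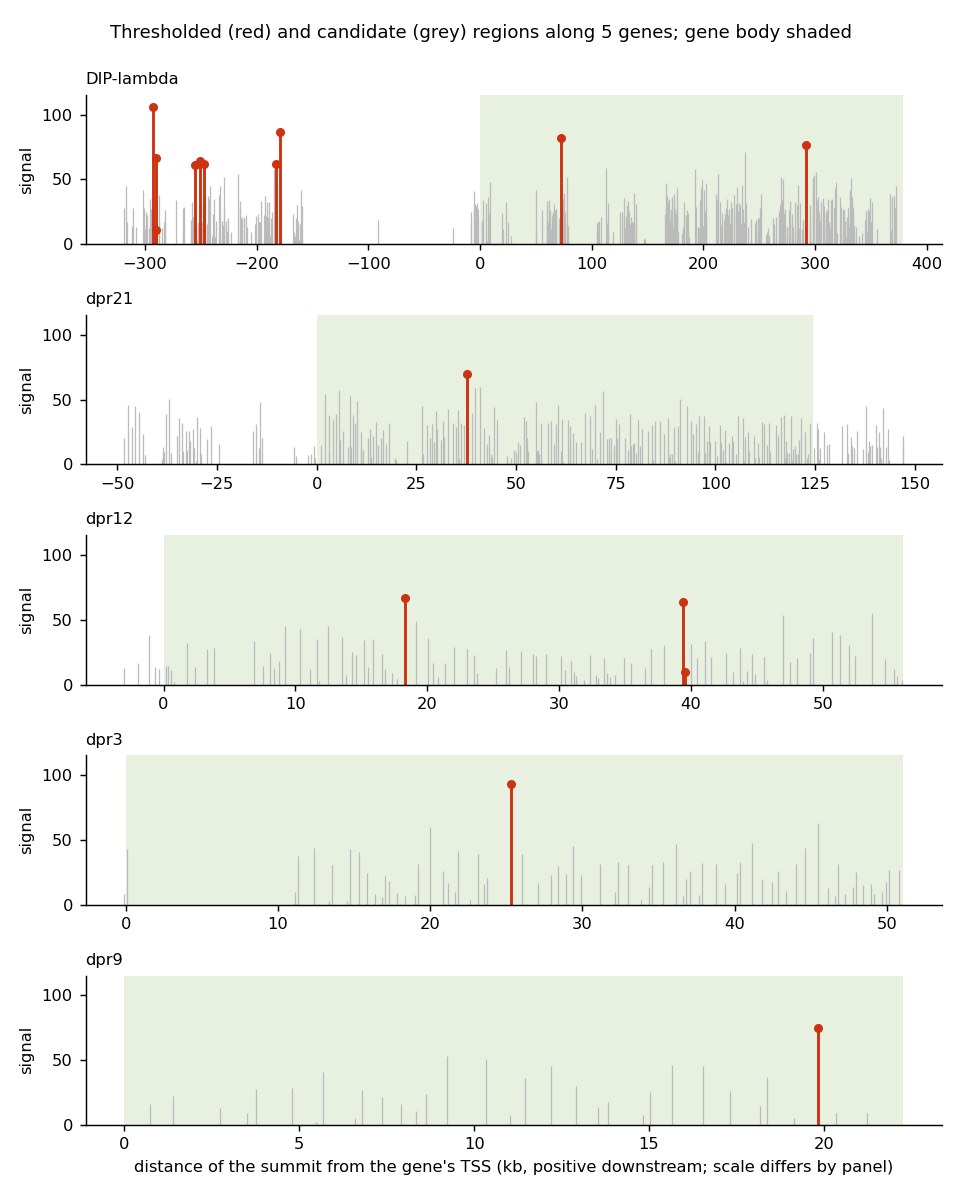
Signal of main-list regions (red) and of candidates (grey) along the 5 bound genes, against the distance of the summit from the TSS in kb, with the gene body shaded. DIP-lambda has 8 red regions outside its body, from 179452 to 292843 bp upstream, and every red region of the 4 Dpr genes lies inside the body, 18.3 kb or more from the TSS.

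The 4 bound Dpr genes code for the smaller partners of the DIP proteins. Among them dpr3 (2L, minus strand, 2058790 to 2109878) had the strongest region, with a signal of 93.2 at 2084430 to 2084765. Its values in the replicates were 45.9 and 41.0 (43.5 ± 3.46, SD, n = 2), the closest to each other among the regions not overlapped by another. The summit lay in intron 2 of 7, 27252 bp long, 25280 bp from the TSS of dpr3. The nearest TSS was that of CG12674, at 4679 bp, so the region was given to dpr3 by its body alone. It was the only region of the 16 also found in the thresholded list of replicate 1.

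For dpr9 (3R, minus strand, 15054930 to 15077206) the region lay in coding sequence, the only 1 of the 16 to do so. The summit was in exon 8 of 8, 19819 bp from the TSS, and the signal at 15057219 to 15057554 was 74.3. Replicate 1 gave 47.5 and replicate 2 gave 26.9 (37.2 ± 14.6, SD, n = 2). GC content within 50 bp of this summit was 74.3%, the highest of the 16.

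In dpr21 (2R, plus strand, 3066499 to 3191011), the longest bound Dpr gene, the region was in intron 3 of 6, 42908 bp long, 37601 bp from the TSS. Its signal at 3103932 to 3104267 was 69.6, with 30.6 in replicate 1 and 38.3 in replicate 2 (34.4 ± 5.43, SD, n = 2). Of its 31-base words 46.7% were repeated in the genome, the highest share in a Dpr gene.

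All 3 regions of dpr12 (2R, plus strand, 5804712 to 5860831), which codes for the partner of DIP-delta, lay in intron 1 of 7, an intron of 41138 bp. The first (5822890 to 5823225), 18346 bp from the TSS, was the closest to its own TSS of the 16. It had a signal of 66.8, with 25.5 in replicate 1 and 36.7 in replicate 2 (31.1 ± 7.89, SD, n = 2). The other 2 overlap each other near the end of the intron, with the stronger summit 2516 bp before the next exon. The stronger (5843909 to 5844244) had 63.3, with 29.3 and 29.8 in replicates 1 and 2. The weaker (5844110 to 5844445) had 9.57 and took its value in replicate 2 from the same region as its neighbour. None of the 3 was found in the conservative list or in the thresholded list of a replicate.

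**Figure D3:**
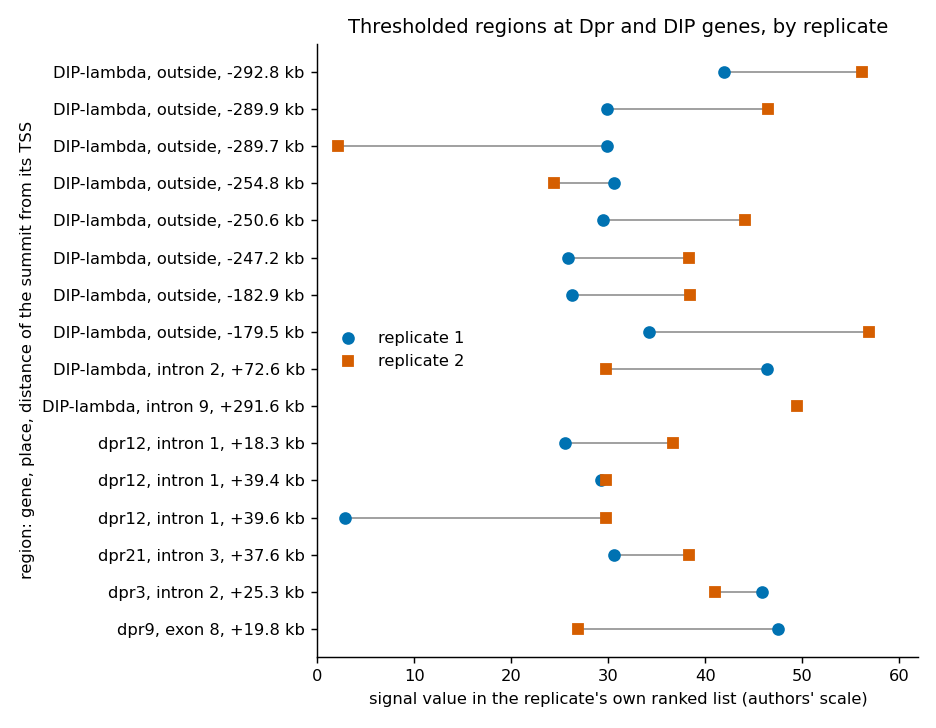
Signal value of each of the 16 regions in the ranked list of replicate 1 (circles) and of replicate 2 (squares), joined by a line, with the gene, the place and the distance from the TSS in kb on the left. Of the 15 regions with both values 10 are higher in replicate 2, and 1 region in intron 9 of DIP-lambda has no value in replicate 1.

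The 16 regions were weak within the main list, far from start sites and mostly absent from the replicates' own thresholded lists. They ranked from 654 to 1449 among the 1470 by signal. None lay within 500 bp of a TSS, against 36.2% of the main list, while 43.8% had the summit in an intron, against 34.8%. The median distance to the member's own TSS was 181192 bp, and 38483 bp for the 8 inside a body. Over the main list the nearest TSS stood a median of 1373 bp away. A region counted as found when a region of the other list overlapped it. In the conservative list, made by ranking the replicates' own regions, 9 of the 16 were found, against 82.4% of the main list. The weaker of the overlapping pair upstream of DIP-lambda was found there only through the region of its neighbour. In the replicates' thresholded lists 1 was found for replicate 1 and 5 for replicate 2, and 10 of 16 in neither, against 27.6% of the main list. None was in both, against 43.5%. These shares of the main list cover regions of every signal, and none was taken for regions of like signal.

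At single regions the replicates differed. Over the 15 regions with both values the log2 ratio of replicate 2 to replicate 1 was 0.42 at the median, between -3.85 and 3.38, and both ends came from the overlapping pairs at DIP-lambda and dpr12. Leaving those pairs out, it ran from -0.82 at dpr9 to 0.73 upstream of DIP-lambda. In 4 of the 6 Dpr regions replicate 2 was higher, and dpr3 and dpr9 were the other way. The order of the 16 regions by signal is thus not the same in the replicates. With 2 replicates and 1 group, no test of a region was made.

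All 16 summits lay in sequence richer in GC than the main list. GC content within 50 bp ran from 38.6% to 74.3% with a median of 49.5%, above the main-list median of 33.7% in 16 of 16. The median of all candidates was 48.5%, and that of the members' own candidates 45.5%. Weaker regions of the main list were in part GC-rich too. The 330 other main-list regions with signals from 61.9 to 78.0, between the quartiles of the members' signals, had a median of 36.6% and quartiles of 29.7% and 49.5%. The members' median thus stood at the upper quartile of regions of like signal.

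**Figure D4:**
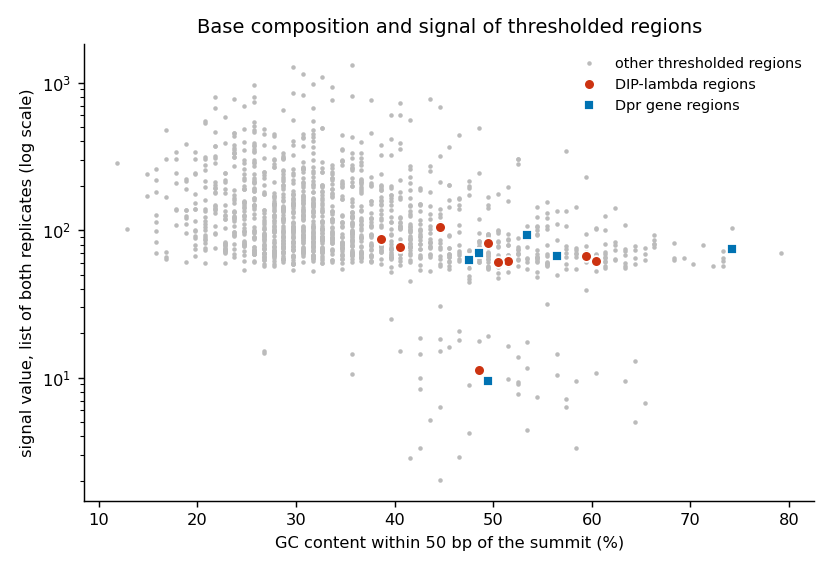
Signal value (log scale) against GC content within 50 bp of the summit (%) for the main-list regions on the arms (grey), those of DIP-lambda (red circles) and those of the 4 Dpr genes (blue squares). The 16 member regions lie between 38.6% and 74.3% GC, and 15 of them are below the median signal of 97.4.

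Of the 8 words searched on both strands within 50 bp of the summit, 2 were found at a member region. TATCGATA was in 1 of 16 (0.340% of the main list, 0.141% of candidates), at DIP-lambda. TTTATG, a word of Hox and Caudal proteins, was in 2 of 16 (11.8% and 9.21%), at DIP-lambda and dpr12. TAATCC, the word of the Gsc class, was in 0 of 16, where 3.67% of the main list and 2.90% of candidates held it. The other 5 words, each in 0 of 16, were TAATTA (7.89% of the main list), GAGAG (8.57%), the Zelda word CAGGTA (1.97%), the E box CATATG (3.54%) and ACAGTG (6.12%). The word ACAGTG was known from earlier results of these data, so its shares of the main list are no independent result. Within 100 bp, TAATCC was in 2 of 16, at dpr3 and upstream of DIP-lambda (6.33% of the main list). TAATTA was then in the 3 dpr12 regions (13.9%) and ACAGTG in the region in intron 2 of DIP-lambda (22.2%). A word missing from this window says only that those letters are not there.

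The other 27 members had no region in the main list, and 23 of them had candidates. Their strongest candidate had a signal from 23.5 to 72.9 with a median of 57.0, and the highest candidate of all was at 121. Over the 28 members with candidates the number ran from 3 to 453 with a median of 60. Longer members had more of them (Spearman's rho 0.87 over 32 genes), while more candidates did not go with a stronger one (rho 0.08 over 28 genes). Both are descriptions of 1 pooled list and have no test. The strongest candidate of a member was intronic in 17 of 28, in coding sequence in 5 and in a promoter in 1. Of all 2485 candidates of the members 70.6% were in introns and 3.22% in promoters, against 37.9% and 8.40% of all candidates. Candidates in a member's body were given to it by the rule, and no such share was taken for long genes as a set.

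The strongest candidate of a member without a main-list region was that of dpr20 (3L, minus strand, 852720 to 857248), with its summit at -580 bp from the TSS (negative values are upstream) and a signal of 72.9. It gave 40.6 in replicate 1 and 31.2 in replicate 2 (35.9 ± 6.67, SD, n = 2) and had rank 52 of 115913 candidates. Its score, the authors' scaled IDR, was 665, below the threshold of 830, yet it was in the conservative list with a score of 956. Next was dpr13 (2R, minus strand, 17975122 to 18007902), in intron 1 of 6 and 9913 bp from its TSS, with 71.3 and a score of 825, just below the threshold. Its replicates gave 49.8 and 16.4, and it was in the thresholded list of replicate 1. A further candidate of dpr13, of 69.3, lay 46 bp from its TSS, the strongest of any member within 500 bp of its own TSS.

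DIP-zeta and DIP-eta came next. The candidate of DIP-zeta (2L, minus strand, 9051631 to 9071164) was in coding sequence 4806 bp from the TSS, with 64.5, and 21.9 and 32.0 in replicates 1 and 2. That of DIP-eta (2L, minus strand, 5601723 to 5617946) was in intron 8 of 11, 12613 bp from the TSS, with 64.0, and 24.3 and 33.4 in the replicates. In both genes replicate 2 was higher, while in dpr20 and dpr13 it was replicate 1. At the other end, the strongest candidate of dpr14 (X, 7903704 to 7908286), 106 bp from a TSS, had 23.5, with 13.3 and 7.04. DIP-beta (X, 21422115 to 21457738) had 44.2 in intron 1, with 19.6 in replicate 1 and no ranked region in replicate 2.

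Within 500 bp of an own TSS 23 of the 32 members, 71.9%, had a candidate, against 43.4% of all protein-coding genes and 56.9% of those of at least 20 kb. Stretches without any ranked region, described below, hold no candidate. At least 50% of the body lay in them in 15.6% of members, 31.2% of long genes and 40.8% of all genes. The shares with a candidate were not corrected for this. None of the members had a main-list region within 500 bp of an own TSS, where 3.77% of all protein-coding genes and 6.57% of long genes had one. The strongest candidate within this distance ran from 5.14 at dpr21 to 69.3 at dpr13, with a median of 28.3. DIP-lambda and dpr9 had none there, and dpr3 had one of 42.6.

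In the partner groups named above, which are a few of the network, dpr12 had regions in the main list. Other pairs were not compared here. Its partner DIP-delta had 78 candidates, the strongest of 49.6. DIP-alpha reached 53.8, and its partners dpr6 and dpr10 62.9 and 50.9. DIP-gamma reached 57.4 and its partner dpr11 58.5. As candidates, these regions stood below the threshold by definition.

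**Figure D5:**
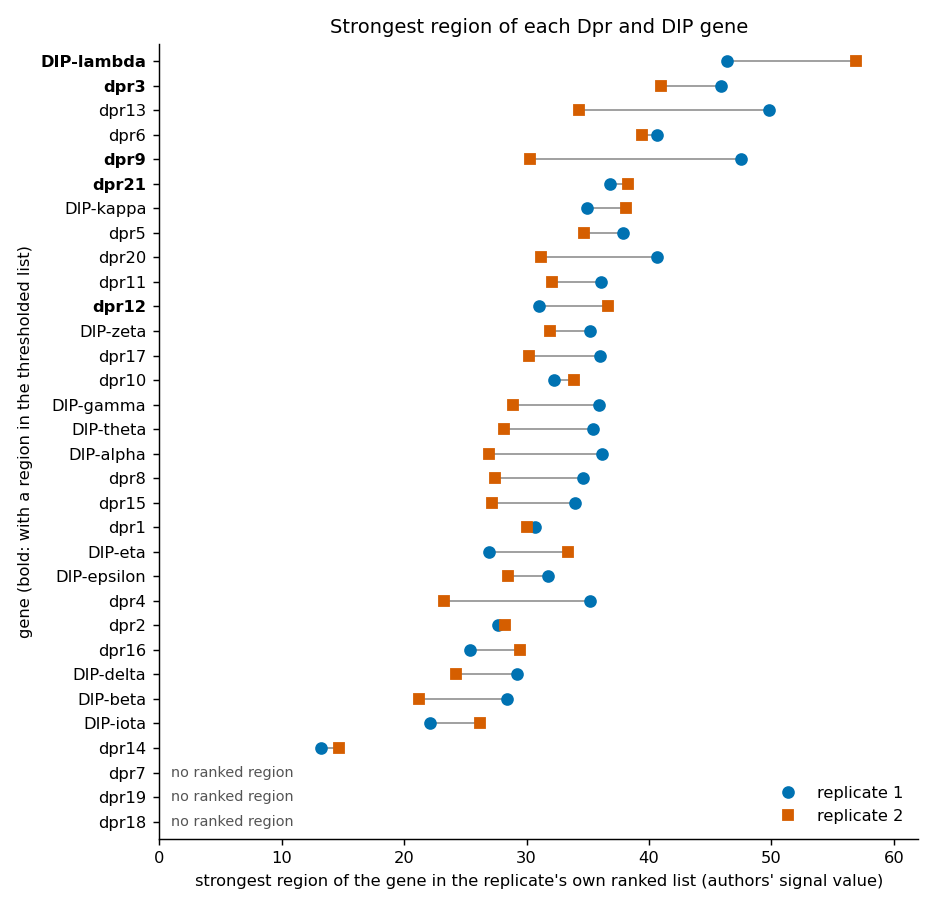
Strongest region of each of the 32 genes in the ranked list of replicate 1 (circles) and of replicate 2 (squares), with the genes of the main list in bold. DIP-lambda has 46.3 and 56.9, the highest in replicate 2, and dpr13, not in the main list, has 49.8 and 34.3, the highest in replicate 1. The values of a gene can come from different places, as they do in these genes. For dpr7, dpr18 and dpr19 there is no ranked region.

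Taken from each replicate's own ranked list, the strongest region of a gene gave a like order in part. Spearman's rho between the replicates was 0.58 over 29 genes, given as a description. The values of a gene can come from different places in replicates 1 and 2. DIP-lambda had 46.3 in intron 2 in replicate 1 and 56.9 upstream of the gene in replicate 2. In dpr13 the values of 49.8 and 34.3 also came from different places. The values of dpr3, 45.9 and 41.0, came from the same place. The bound dpr12, with 30.98 and 36.7, and dpr21, with 36.8 and 38.3, were no higher than dpr6, with 40.7 and 39.5, which had no region in the main list. The genes with and without a main-list region thus overlapped in this measure.

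DIP-iota, dpr7, dpr18 and dpr19, of 3.74 to 6.57 kb, had no candidate, 12.5% of the members against 31.1% of all protein-coding genes. Each lay wholly in a stretch of over 10 kb without any ranked region, a length chosen after the data were seen. Such stretches made up 34.1% of the arms, where ranked regions otherwise stood a median of 620 bp apart, and 95.9% of chromosome 4, on which dpr7 lies. Of the members 15.6% had at least 50% of their body in them, against 31.2% of genes of 20 kb or more and 40.8% of all genes. DIP-iota did have regions in the replicates' own lists, 6 and 4, up to 22.1 and 26.2. For dpr7, dpr18 and dpr19 neither replicate listed one. Why these stretches are empty was not tested, so no statement on binding can be made for these genes. Over the bodies outside the stretches, members held 0.558 main-list regions per 100 kb, against 1.21 in long genes and 1.41 in all.

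Other adhesion genes were set beside the members, 64 in 4 lists. Of the Beat family of immunoglobulin receptors 2 of 14 had a region, and of their Side partners 3 of 8. Other relatives in the superfamily had 2 of 12 and other synaptic cell surface genes 10 of 30. In all 26.6% had one, and 27.1% of those of at least 20 kb, next to the 27.8% of long members. Of these genes 6 held a stronger region than any member. ImpL2, a secreted insulin-binding protein, had 313 (152 ± 11.0 in the replicates, SD, n = 2) in an intron, and kirre, which acts in myoblast fusion, had 239 (119 ± 6.75) in an intron and 8 regions in all. The intronic region of beat-Ib had 185 (95.0 ± 2.24). Fas3, a homophilic adhesion protein gene, the guidance receptor gene fra and side had 112, 110 and 109, each in an intron. Neurexin, Nrx-1, had its region at -135 bp from its TSS with 93.1, and Ama at -302 bp with 92.0.

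The strongest regions of the other listed genes ran from 44.4 to 79.9, and those of the bound members from 66.8 to 105. That of side-V had 79.9, and those of sns, the partner of kirre, caps, side-IV and beat-VI had 73.1, 71.1, 69.6 and 69.4. Nlg1, the fly neuroligin gene, had 65.3, Ten-m 62.4, Con 47.5 and Dscam3 44.4. Over these lists 14 of the 17 genes had the strongest region in an intron, as did 3 of the 5 bound members, dpr3, dpr12 and dpr21.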

How the data were processed

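The authors deposited lists of regions for each replicate and for both together, ranked or thresholded by IDR, on dm6 per the labels. For the aligner and the peak caller, names and versions were not given in the sources used here. In the deposited lists each region has the authors' signal value, of unstated scale, and a score, the scaled IDR, with a maximum of 1000. The deposited −log10 IDR was used to check the threshold, a score of 830 or a −log10 IDR of 2.00, an IDR of 0.01. The 24 unnamed columns of the ranked lists that hold values of the compared region sets were left out. No read counts are in the files, which leaves library depth unknown, and no interval was computed.

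The main list held 1655 regions, 1470 of them on the 7 chromosome arms. Candidates were the 115913 regions of its ranked list of 121914 that lay on the arms, scored below 830 and overlapped no main-list region. A further 130 regions on the arms scored 830 or more but were absent from the main list, none of them at a member, and they were used nowhere. Summits were placed on Ensembl release 115 transcripts, in the order promoter (within 500 bp of a TSS), 5' UTR, CDS, 3' UTR, intron and intergenic. A replicate's value is that of the region of its ranked list with the longest overlap. Repeated words were counted over 31 bases in the Release 6 genome. Python 3.11.15, numpy 2.4.6, pandas 2.3.3 and matplotlib 3.10.9 were used, and the assignment of regions to genes was tested on simulated data.

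The text names each member with a main-list region, the 4 others with the strongest and the 2 with the weakest candidate, and each other listed adhesion gene with a main-list region. Further members are named as known partners or for their lack of candidates, after their values were seen. The members, the lists and the word ACAGTG were chosen with earlier results of these data known. No test was run, since there is 1 group and regions and genes of 1 genome are not replicates. The alternatives were the conservative list, each replicate's list alone, the stronger 50% of regions, other ways to give regions to genes, and other windows.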

Additional observations from a re-analysis of the deposited data

How the results depend on the processing

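Of 58 values under alternatives, 33 stayed near the main value and 25 moved. A count or a median distance stayed when it was within a factor of 1.5 of the main value. For a median signal the limit was the SD of the replicate medians, and for a median log2 ratio the SD of the ratios over regions. Under the conservative list 5 genes and 12 regions were found, with dpr20 in place of dpr12. With a single replicate's thresholded list, leaving out the other, the counts ranged from 1 to 2 genes and from 2 to 7 regions, with a median signal from 46.4 to 47.9, 2 regions in an intron of a member, and a median distance to the own TSS from 17586.5 to 289695 bp. Replicate 2 alone gave DIP-lambda with 7 regions, and replicate 1 alone gave dpr13 and dpr3. On the arms the thresholded lists of replicates 1 and 2 held 1067 and 843 regions, against 1470 in the main list. The cause of the lower counts was not tested. The median signals come from the replicates' own lists, so their shift from the main list also holds any difference in scale.

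Among the stronger 50% of the main list 1 gene remained, DIP-lambda, with 1 region at a signal of 105, 0 in an intron and a distance of 292843 bp. This follows from the ranks given above, since only 1 of the 16 regions exceeded the median signal of the main list. With regions given by the nearest TSS only, 3 were in an intron of a member. With regions given by the gene body only, or by the body or a TSS within 20 kb, there were 8 regions with a median distance of 38483 bp, since the upstream regions of DIP-lambda then dropped out. Without DIP-lambda there were 6 regions and a median distance of 31440.5 bp. Within 100 bp of the summit, TAATCC was in 2 regions, TAATTA in 3 and ACAGTG in 1, against 0 each within 50 bp. A further alternative, chosen after seeing the data, left out genes with at least 50% of their body in stretches without ranked regions. It kept 5 bound members of 27 (18.5%), against 12.5% of all genes. The members left out were all below 20 kb, so the share of the 18 long members stayed at 27.8%, against 36.9% of long genes.

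No paired analysis was possible because there is only 1 group. Without read counts the depth cannot be set against the weak regions, and no control library was analysed here.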
